A study of Sus scrofa with 15 samples.

Results

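The genes described here are the cyclins, the cyclin-dependent kinases (CDKs), the CDK inhibitors and a set of CDC genes of the cell cycle. They were picked out by gene symbol, with earlier results of these data known, and 63 genes of the pig table matched, of 43294 features that include 28224 known genes and 15070 transcripts assembled without a gene name. Both CDC25A and CDKN2A belong to the same pathway, but no entry matched their symbols, so they were not analysed here. RNA-seq values were available for 5 groups of 3 libraries each. PFF were cultured pig fetal fibroblasts, the donor cells of somatic cell nuclear transfer (SCNT). SCNT4c and SCNT8c were untreated cloned embryos of 4 and 8 cells, taken in pools of 30. SCNT4c-KG were cloned embryos of 4 cells that had been injected with mRNA of KDM4A, an H3K9me3 demethylase, at 1000 ng/μl 5 h after activation, and kept for 48 h in 0.1 μM GSK126, which blocks EZH2, the enzyme that methylates H3K27. SCNT4c-TDG came from a transgenic donor line carrying a doxycycline-inducible TDG, a DNA glycosylase of active demethylation, with 500 ng/ml doxycycline from 40 to 72 h. The SCNT4c libraries carried neither the transgene nor doxycycline, so that the effects of the TDG protein, the donor line and the drug cannot be told apart. The KDM4A injection and GSK126 were given together, and their separate effects cannot be told apart either.

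Cyclins are proteins whose amounts rise and fall through the cell cycle, and each CDK is active only when a cyclin binds it. D-type cyclins with CDK4 and CDK6 act in G1, cyclin E with CDK2 starts DNA replication, cyclin A acts in S phase and G2, and cyclin B with CDK1 drives mitosis, while the inhibitors bind and block these kinases. Other members of the family (CDK7 to CDK9, CDK12 and CDK13 with cyclins H, C, T and K) phosphorylate RNA polymerase II. Early embryos cleave with hardly any G1, at first on maternal mRNA and protein from the oocyte, until the embryonic genome takes over.

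Promoter sequences of 3 members are printed because the results below turn on their mRNA levels: CDK1 and CCNE1, which were higher in the treated embryos, and CCNB1, the most abundant mitotic cyclin of the cloned embryos. Each is the 250 bases before the gene start in Sscrofa11.1, written 5′ to 3′ on the gene's own strand, with gene starts from RefSeq. Capitals mark matches on either strand to 3 motifs that are common in cell cycle promoters, the CCAAT box (CCAAT), the CHR (TTTGAA) and an E2F site (TTTGGCGC or TTTCGCGC).
CDK1 (chr14:64233695-64233944, plus strand): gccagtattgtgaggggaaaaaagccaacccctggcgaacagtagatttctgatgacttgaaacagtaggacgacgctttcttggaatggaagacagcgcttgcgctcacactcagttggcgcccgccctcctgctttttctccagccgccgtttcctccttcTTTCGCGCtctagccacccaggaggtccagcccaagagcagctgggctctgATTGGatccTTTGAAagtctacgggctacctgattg
CCNE1 (chr6:39919291-39919540, plus strand): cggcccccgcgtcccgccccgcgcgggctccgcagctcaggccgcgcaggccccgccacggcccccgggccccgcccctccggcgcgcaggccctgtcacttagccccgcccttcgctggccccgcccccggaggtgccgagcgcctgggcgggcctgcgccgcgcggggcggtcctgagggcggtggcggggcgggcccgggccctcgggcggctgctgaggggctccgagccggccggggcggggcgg
CCNB1 (chr16:47337989-47338238, plus strand): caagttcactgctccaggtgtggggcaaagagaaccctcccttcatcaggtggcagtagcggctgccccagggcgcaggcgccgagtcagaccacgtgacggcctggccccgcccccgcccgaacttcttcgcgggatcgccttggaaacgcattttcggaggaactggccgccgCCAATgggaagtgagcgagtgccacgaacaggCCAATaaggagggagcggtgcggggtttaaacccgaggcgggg
The CDK1 window held all 3 motifs, with the CHR 27, the CCAAT box 36 and the E2F site 87 bases before the start. CCNB1 had 2 CCAAT boxes, 75 and 43 bases before its start, and no motif was found in the CCNE1 window. Among all 20651 promoters of this length, 32.0% held a CCAAT box, 13.0% a CHR and 0.93% an E2F site. Of the 63 members, 22 (34.9%) held a CCAAT box, 9 (14.3%) a CHR and 1 (1.59%), CDK1, an E2F site. In these 3 windows no match overlapped another, and a match describes the sequence only.

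The deposited values are HTSeq read counts divided by 1 factor per library, and every value could be turned back into whole reads. A library held between 12354649 and 22868038 recovered reads, with the SCNT4c-KG libraries lowest (12354649 to 15390472). PFF summed to between 3853900 and 4085800 over 12 fibroblast markers, and no embryo library passed 5457, although PDGFRA was at 0 in PFF too. Markers of oocytes and early embryos summed to 25.03 at most in PFF and to 52933 or more in every embryo library, with BMP15, GDF9 and MOS at 0 in all embryo groups. TDG lay between 49860 and 59940 in SCNT4c-TDG, 3886 and 4738 in SCNT4c-KG and 939 and 2541 in SCNT4c. KDM4A lay between 1429 and 1476 in SCNT4c-KG, 555 and 918 in SCNT4c-TDG, which had no injection, and 134 and 313 in SCNT4c. The titles and column names set SCNT4c-KG and SCNT4c apart, but the description field of the SCNT4c-KG samples holds names like those of the untreated columns. The direction of every difference between these groups rests on the titles and column names. Of the 63 members, 44 reached a mean of 10 over the embryo libraries and 45 over SCNT4c and PFF, and only these were tested. A member near 0 in all groups of a fit but 1 passed this minimum only through the group where it was high, so only 1 direction could be called. A member was called changed when its Benjamini-Hochberg adjusted p from limma, over all features tested, was under 0.05 and its fold change above 2. Fold changes are on the log2(value + 1) scale, which understates the change of low genes, and ± after a log2 fold change is its SE. Groups are given as mean ± SD (n = 3). No label states that the libraries came from separate cultures or pools made on separate days, so p-values measure the spread between these libraries. In pooled RNA, fewer cells of a kind and less RNA per cell cannot be told apart.

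The first comparison set the cloned embryos of 4 cells against fibroblasts of the donor type. In the paper, donor cells were cultured to contact inhibition before transfer. The sources used here do not state whether the sequenced PFF were held in the same way. What part that state has in the PFF values was not tested. Of the 4 tested G1 members, 3 were lower in the embryos and CCND2 had no call, and of the 6 tested members of mitosis, 4 were higher, CCNF was lower and CCNB3 had no call. Of the 45 members tested, 12 were higher and 23 lower in SCNT4c, which is 77.8% of them, against 78.2% of all 19287 features tested (39.7% higher and 38.5% lower). The median log2 fold change was -1.42 over the tested members and 0.07 over all features. The median of all features was 0.859 with equal totals, 0.962 with edgeR and 1.006 with DESeq2, so that the size of each fold change against PFF depends on the scaling. CCND1, a D-type cyclin, was 11411, 11483 and 11377 in PFF and 0, 0 and 3.32 in SCNT4c libraries a, b and c. That is 4 reads in 3 embryo libraries against a mean of 11424 in PFF, a ratio of 10320 with a 95% counting interval of 4027 to 37840 (log2 fold change -12.78 ± 0.60, adjusted p = 5.73e-06). CDK6 followed the same direction, with 10682, 11179.7 and 9860.2 in PFF and 139, 99.6 and 148 in SCNT4c, so that the lowest fibroblast library exceeded the highest embryo library many times over (log2 fold change -6.37 ± 0.18, adjusted p = 1.1e-06). CDK4, the other D-cyclin kinase, fell less, from 3861 ± 133 to 855 ± 104 (log2 fold change -2.18 ± 0.13, adjusted p = 1.37e-05). CCND2 was the G1 member without a call, at 1167, 1062 and 1104 in PFF and 1272, 451 and 852 in SCNT4c, and these groups overlapped (log2 fold change -0.49 ± 0.37, adjusted p = 0.256).

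**Figure D1:**
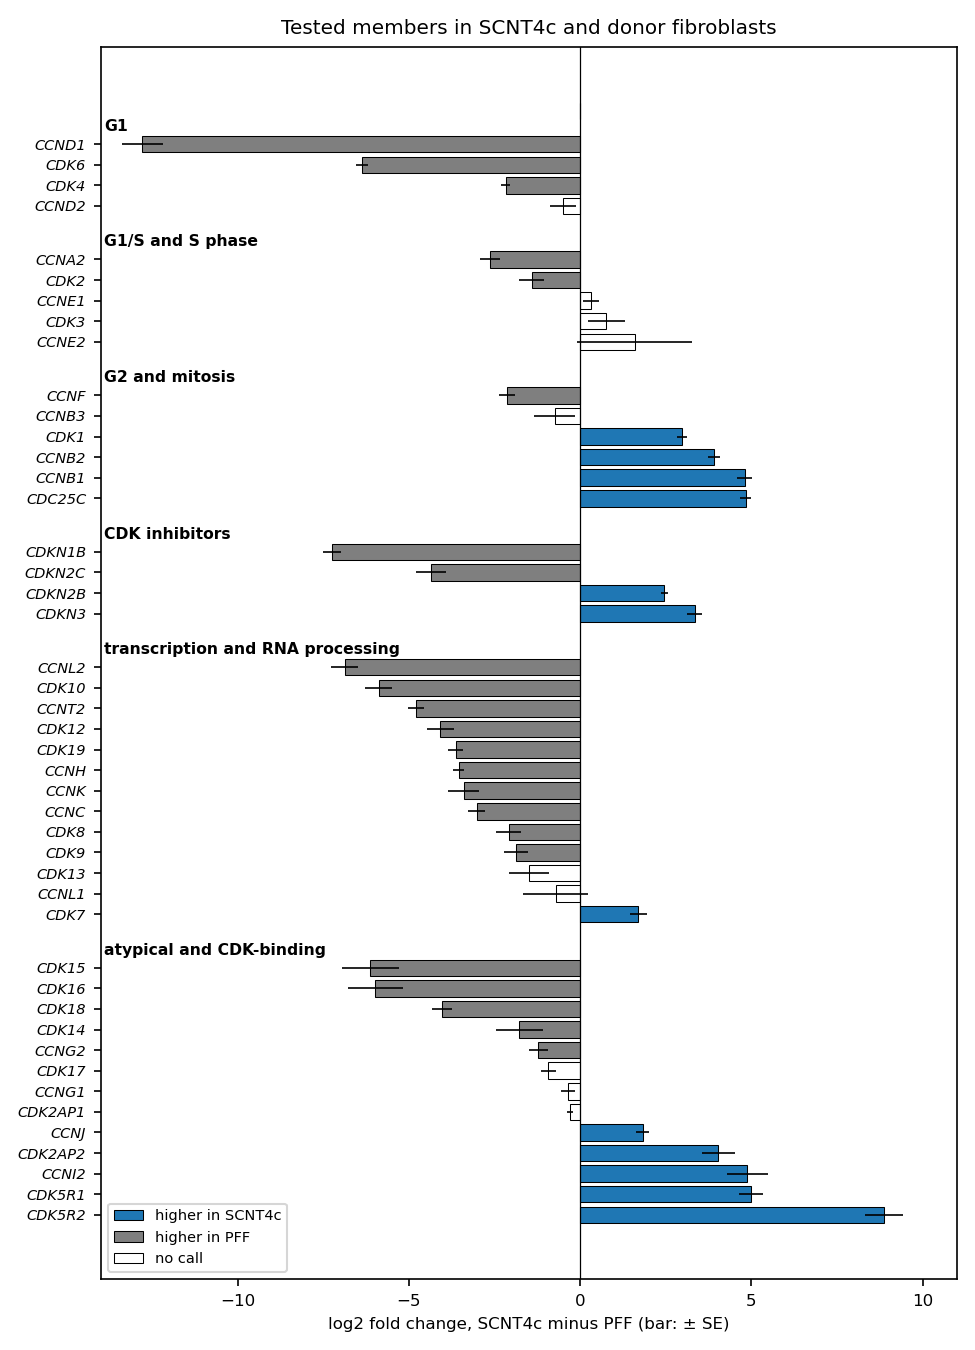
Log2 fold change between SCNT4c and PFF for the 45 members tested, grouped by role. Bars show the fitted difference (SCNT4c minus PFF) with its SE, blue for members called higher in SCNT4c, grey for those called higher in PFF and white for no call. CCND1 (-12.78) and CDKN1B (-7.24) reach farthest to the left, and CDK5R2 (8.87), CDK5R1 and CCNI2 farthest to the right.

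Among the genes of mitosis, 4 of 6 tested rose and 1 fell, together 83.3% against 78.2% of all features (39.7% higher and 38.5% lower). CCNB1, the cyclin of CDK1, was 707, 672 and 825 in PFF and 14768, 24779.6 and 23518 in SCNT4c (log2 fold change 4.80 ± 0.22, adjusted p = 5.18e-06). Its relative CCNB2 rose from 222 ± 35.5 to 3350 ± 367 (log2 fold change 3.92 ± 0.18, adjusted p = 4.88e-06). The phosphatase CDC25C, which switches CDK1 on, rose from 185 ± 29.2 to 5266 ± 296 (log2 fold change 4.83 ± 0.16, adjusted p = 1.59e-06), and CDK1 itself from 431 ± 67.0 to 3363 ± 144 (log2 fold change 2.97 ± 0.15, adjusted p = 8.28e-06). For all of these the 3 embryo libraries lay above the 3 fibroblast libraries. CCNF fell (log2 fold change -2.14 ± 0.23, adjusted p = 0.0002), and CCNB3 had no call. In G1/S and S phase, CCNA2 fell from 173 ± 11.9 to 27.8 ± 7.78 (log2 fold change -2.63 ± 0.28, adjusted p = 0.000203), while CCNE1 was 128, 152 and 172 in PFF and 226, 177 and 164 in SCNT4c, with overlapping groups and no call. CDK2 also had a call (log2 fold change -1.42 ± 0.37, adjusted p = 0.0112), which other scalings ended: with the same total in each library, the adjusted p was 0.0837, and it was 0.147 with edgeR and 0.16 with DESeq2. Over all alternatives the adjusted p of CDK2 ranged from 0.00602 to 0.16.

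The 4 tested inhibitors split. CDKN1B, which encodes p27 and holds cells in G1, was 2087, 2263 and 2044 in PFF and 16.6, 14.9 and 9.13 in SCNT4c (log2 fold change -7.24 ± 0.26, adjusted p = 2.22e-06). CDKN2C, an INK4 inhibitor of CDK4 and CDK6, fell from 974 ± 92.8 to 51.6 ± 24.9 (log2 fold change -4.35 ± 0.43, adjusted p = 0.000146). In contrast, CDKN2B, another INK4 inhibitor, was 1110.4, 1135 and 1120.3 in PFF and 6291, 5748 and 6458 in SCNT4c, with little spread in either group (log2 fold change 2.46 ± 0.10, adjusted p = 2.85e-06). CDKN3, a phosphatase that acts on CDKs, rose as well (log2 fold change 3.34 ± 0.22, adjusted p = 2.32e-05). CDKN1A, which encodes p21, did not reach the mean needed for a test by its own entry, with 14.7, 7.64 and 5.96 in PFF and 0, 0.874 and 0 in SCNT4c. It is alone at its locus, and its sum with the transcript assembled there was 24.6 ± 3.34 in PFF against a single read in SCNT4c. That sum passed the minimum mean through PFF alone, so only a fall could be called and no p-value is given.

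Of 13 tested members that act on transcription or RNA processing, 10 were lower in SCNT4c and 1, CDK7, was higher, together 84.6% against 78.2% of all features (38.5% lower and 39.7% higher). CCNL2, a cyclin of splicing factors, fell from 4425 ± 162 to 40.3 ± 19.7 (log2 fold change -6.88 ± 0.40, adjusted p = 1.35e-05). CDK10 was 63.5, 61.1 and 93.0 in PFF and rested on 1 read in SCNT4c, a ratio of 262 with a 95% counting interval of 47.0 to 10340. CCNT2, a cyclin of CDK9, CCNH, the cyclin of CDK7, and CDK12 fell by 4.79, 3.55 and 4.08 on the log2 scale by their own entries. At the CDK12 locus, which holds 1 other gene, the assembled transcripts summed to 50.2 ± 4.94 in PFF and 181 ± 42.6 in SCNT4c, the opposite order, and their reads could not be assigned. CDK7, the kinase that phosphorylates other CDKs and RNA polymerase II, rose from 772 ± 29.4 to 2609.9 ± 908 (log2 fold change 1.70 ± 0.26, adjusted p = 0.00105). The call of CDK9 (log2 fold change -1.86 ± 0.35, adjusted p = 0.00267) fell just short of a 2-fold change with DESeq2 (log2 fold change -0.98, adjusted p = 0.0114, range over its alternatives 0.000105 to 0.0217).

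The atypical and CDK-binding members included the farthest rise. CDK5R2, an activator of CDK5 best known from neurons, was 0, 2.55 and 0 in PFF, or 2 reads in all, and 801, 728 and 624 in SCNT4c, a ratio of 845 with a 95% counting interval of 242 to 7229 (log2 fold change 8.87 ± 0.55, adjusted p = 1.75e-05). Its relative CDK5R1 rose from 28.5 ± 12.6 to 901 ± 182 (log2 fold change 5.00 ± 0.35, adjusted p = 2.92e-05), while the entry of CDK5, their kinase, was listed at 0 in all 15 libraries. A transcript assembled at the CDK5 locus, which holds 1 other gene, was 108, 111 and 49.8 in SCNT4c and 1.22, 1.27 and 5.96 in PFF, and its reads could not be assigned to either gene. CDK2AP2, a CDK2-associated protein, was 1241, 1290.2 and 1487 in PFF and 47793, 17293 and 12551 in SCNT4c, with the embryo libraries far apart from each other (log2 fold change 4.03 ± 0.48, adjusted p = 0.000344). CCNI2 (log2 fold change 4.88 ± 0.60, adjusted p = 0.000383) and CCNJ (log2 fold change 1.83 ± 0.18, adjusted p = 0.000149) rose as well. CDK15 (log2 fold change -6.12 ± 0.84, adjusted p = 0.000636) and CDK18 (log2 fold change -4.03 ± 0.29, adjusted p = 3.19e-05) fell. The calls of 2 further members depended on 1 library or on scaling. CDK14 (log2 fold change -1.78 ± 0.68, adjusted p = 0.0484) lost its call with edgeR (adjusted p = 0.369) and DESeq2 (adjusted p = 0.416), and without any 1 of the 3 PFF libraries or without SCNT4c library a or b (adjusted p = 0.0697 to 0.133, range over all alternatives 0.0158 to 0.416). Assembled transcripts at the CDK14 locus, which 15 other genes share, summed to 232 ± 23.6 in PFF and 405 ± 155 in SCNT4c. CCNG2 (log2 fold change -1.22 ± 0.28, adjusted p = 0.00726) fell by 0.93 on the log2 scale without SCNT4c library b, less than 2-fold, and had an adjusted p of 0.651 with quantile normalization, within a range over its alternatives of 0.00389 to 0.651.

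The next comparisons asked what KDM4A with GSK126, or TDG, did to these genes in embryos of 4 cells. Both use the same 3 SCNT4c libraries, so their values are given side by side and no agreement between them is read as independent. Cyclin A2, cyclin E1 and CDK1 were higher with either treatment, and CDKN2B and cyclin G1 were lower. With KDM4A and GSK126, 14 of the 44 tested members were higher and 9 lower than in SCNT4c, together 52.3%, against 37.2% of all 18942 features (17.6% higher and 19.6% lower). With TDG, 13 were higher and 8 lower, together 47.7%, against 33.3% of all features (15.7% higher and 17.6% lower). The share of higher calls among the TDG calls was 61.9%, and it was 73.7% (14 higher and 5 lower) when each library was scaled to the same total and 72.7% (16 higher and 6 lower) with DESeq2. Median log2 fold changes of the tested members were 0.40 and 0.60, against -0.30 and -0.26 over all features.

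CCNA2 moved farthest. It was 35.5, 28.0 and 19.9 in SCNT4c libraries a, b and c, 2003, 1986 and 2645 in SCNT4c-KG and 4397, 4039 and 3802 in SCNT4c-TDG. No treated library came near the SCNT4c range, and log2 fold changes were 6.29 ± 0.40 with KDM4A and GSK126 (adjusted p = 3.47e-08) and 7.18 ± 0.40 with TDG (adjusted p = 2.96e-08). CCNE1, the cyclin that starts DNA replication with CDK2, was 226, 177 and 164 in SCNT4c, 704, 745 and 792 in SCNT4c-KG and 2063, 2047 and 1974 in SCNT4c-TDG. The 3 groups did not overlap, and log2 fold changes were 1.99 ± 0.33 (adjusted p = 0.000346) and 3.43 ± 0.33 (adjusted p = 3.14e-06). Its kinase CDK2 was 61.5, 55.1 and 32.4 in SCNT4c, 118, 97.7 and 175 in SCNT4c-KG and 23.4, 27.6 and 24.5 in SCNT4c-TDG, on opposite sides of SCNT4c but with no call in either (adjusted p = 0.0792 and 0.254). With KDM4A and GSK126, 3 of 16 alternatives called CDK2 higher (adjusted p over all alternatives 0.0116 to 0.212). CDC6, which loads the replicative helicase, was called with KDM4A and GSK126 (log2 fold change 3.36 ± 1.12, adjusted p = 0.0281), at 139, 77.4 and 85.5 against 13.4, 2.62 and 15.8 in SCNT4c. That call was lost with edgeR (adjusted p = 0.0547), without SCNT4c library b or without SCNT4c-KG library 1, 2 or 3 (adjusted p = 0.0559 to 0.115, range over all alternatives 0.00254 to 0.115). CDK3 was 105, 35.0 and 29.9 in SCNT4c, 0, 31.7 and 0 in SCNT4c-KG, where 1 library overlapped SCNT4c, and 1.67, 3.07 and 1.53 in SCNT4c-TDG. It was called lower with either treatment (-3.94 ± 1.19, adjusted p = 0.0176, and -4.02 ± 1.19, adjusted p = 0.0174). With KDM4A and GSK126 it was -2.18 by edgeR (adjusted p = 0.203) and -2.19 by DESeq2 (adjusted p = 0.14). Its first call was also lost without SCNT4c library a or SCNT4c-KG library 1 or 3 (adjusted p = 0.0723 to 0.0745, range over all alternatives 0.000813 to 0.203), and its second without SCNT4c library a or SCNT4c-TDG library 1 or 3 (adjusted p = 0.0519 to 0.0747, range 0.0019 to 0.0836).

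**Figure D2:**
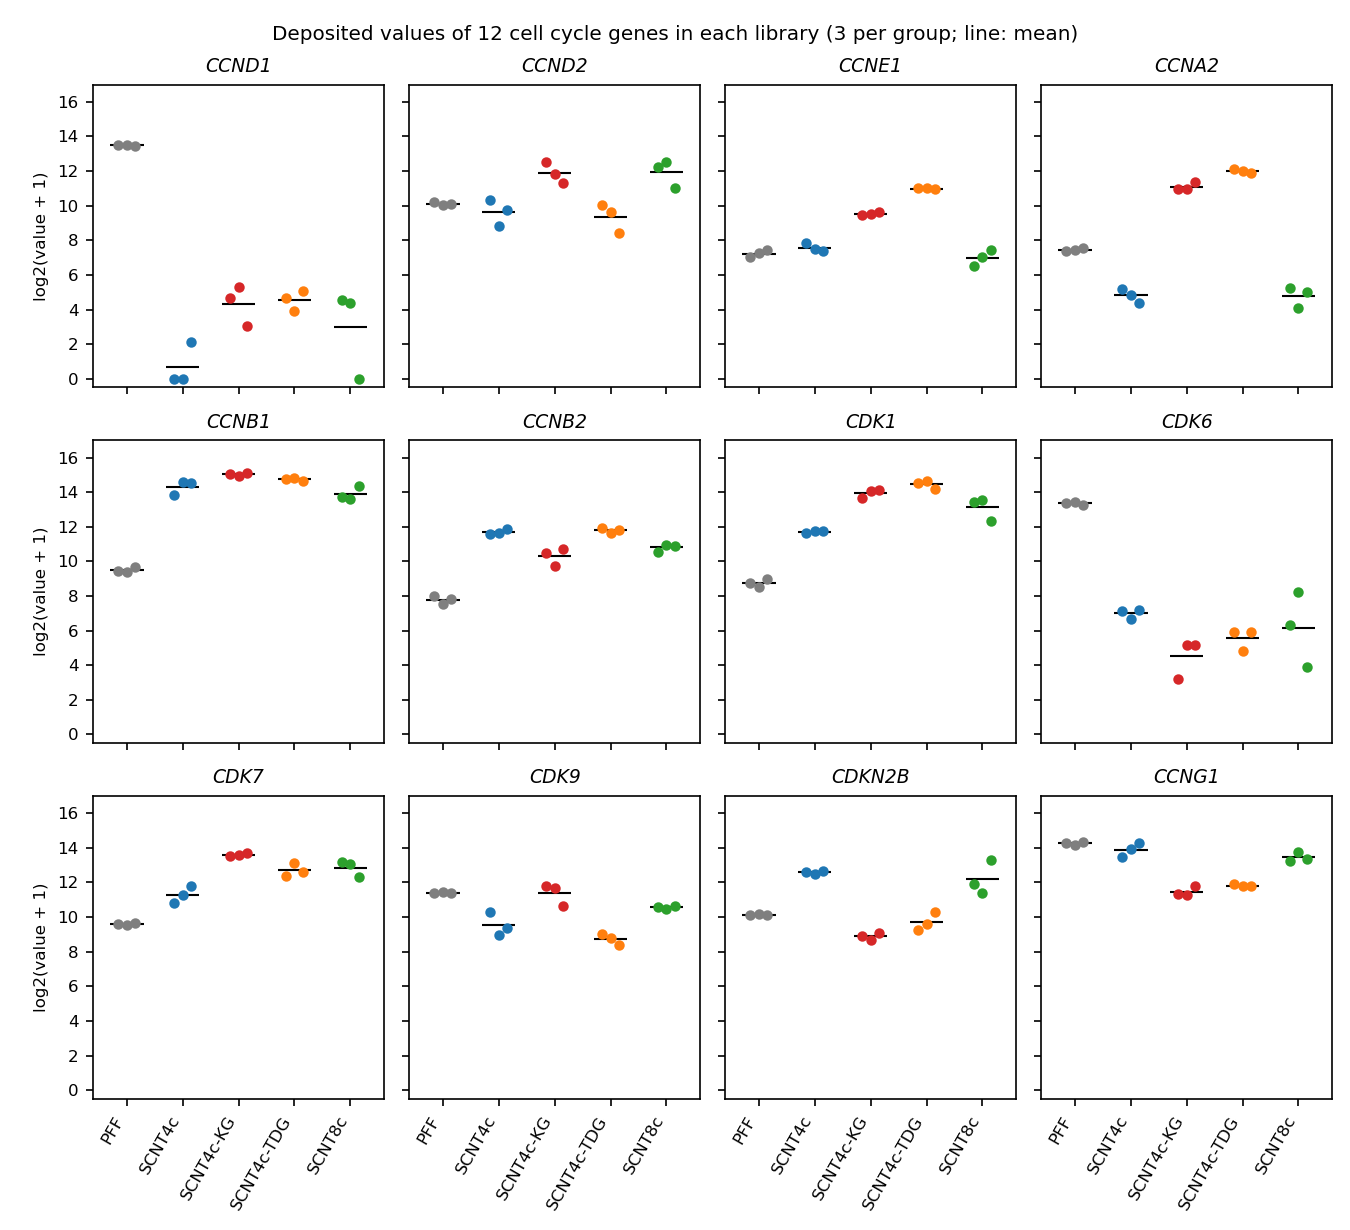
Values of 12 members in each of the 15 libraries, on a log2(value + 1) axis that is the same in all panels. Each point is a library, colours mark the groups and the black line is the mean of the 3 log2 values. CCNA2 lies between 15.8 and 36.4 in SCNT4c and SCNT8c and at 1986 or more in every treated library, and CCND1 is at 11377 or more in PFF and at 38.1 or less in every embryo library.

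CDK1, the kinase of mitosis, was 3202, 3404 and 3481 in SCNT4c, 12823, 17454 and 17664 in SCNT4c-KG and 23641, 25362 and 18448 in SCNT4c-TDG. All treated libraries lay above the narrow SCNT4c range, and log2 fold changes were 2.23 ± 0.30 (adjusted p = 5.52e-05) and 2.73 ± 0.30 (adjusted p = 1.04e-05). CCNB1, its partner, was already high, at 14768, 24779.6 and 23518 in SCNT4c, 33471, 31714 and 34962 in SCNT4c-KG and 27331, 29100.5 and 25737 in SCNT4c-TDG. The treated libraries were all above SCNT4c, but the differences were under 2-fold (0.70 ± 0.26, adjusted p = 0.0431, and 0.42 ± 0.26, adjusted p = 0.225). CCNB2 was 1441, 839 and 1693 in SCNT4c-KG and 3923, 3241 and 3539.6 in SCNT4c-TDG, against 3054, 3235 and 3761 in SCNT4c. It was lower with KDM4A and GSK126 (log2 fold change -1.39 ± 0.29, adjusted p = 0.0018) and overlapped SCNT4c with TDG (0.09 ± 0.29, adjusted p = 0.832). CCNB3, a further B-type cyclin, was higher with either treatment (2.73 ± 0.74, adjusted p = 0.00999, and 2.32 ± 0.74, adjusted p = 0.0258). The transcript assembled at its locus, which 3 other genes share, was 84.4 ± 28.1 in SCNT4c, 353 ± 35.6 in SCNT4c-KG and 114 ± 75.0 in SCNT4c-TDG. Its TDG call was lost without SCNT4c library a or SCNT4c-TDG library 1 or 3 (adjusted p = 0.087 to 0.108, range over all alternatives 0.00147 to 0.108). CDC25C fell with TDG, at 2049.6, 2219 and 2919 against 5019.5, 5594 and 5183 (log2 fold change -1.15 ± 0.27, adjusted p = 0.00393), and under 2-fold by edgeR, DESeq2 and equal totals (-0.88, -0.85 and -0.88), with adjusted p from 0.000762 to 0.0317 over its alternatives.

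In G1, the D-type cyclins and their kinases did not move as one. CCND2 was 5839.8, 3649.7 and 2582 in SCNT4c-KG against 1272, 451 and 852 in SCNT4c (log2 fold change 2.27 ± 0.51, adjusted p = 0.00283). With TDG it was 1043, 787 and 337, overlapping SCNT4c, with no call (-0.27 ± 0.51, adjusted p = 0.709). CCND1 rose from its 4 reads in SCNT4c to 24.5, 38.1 and 7.12 in SCNT4c-KG and 24.3, 13.8 and 32.1 in SCNT4c-TDG, far below the fibroblasts. These are ratios of 21.0 and 21.1, with 95% counting intervals of 8.19 to 76.96 and 8.25 to 77.5 (adjusted p = 0.0301 and 0.0254). Both CCND1 calls were lost with edgeR (adjusted p = 0.0595 and 0.0545) and without SCNT4c library a or b, the first also without SCNT4c-KG library 1 or 2 (adjusted p = 0.0755 to 0.103, range over all alternatives 0.0124 to 0.103) and the second without SCNT4c-TDG library 1 or 3 (adjusted p = 0.0745 to 0.084, range 0.0096 to 0.084). CDK4 had no call in either group (adjusted p = 0.865 and 0.375). CDK6 was 8.17, 35.5 and 35.6 in SCNT4c-KG and 60.2, 26.8 and 59.7 in SCNT4c-TDG, against 139, 99.6 and 148 in SCNT4c. Only the first had a call (log2 fold change -2.47 ± 0.92, adjusted p = 0.045), and it was lost with edgeR (adjusted p = 0.075) and without any 1 of the 6 libraries (adjusted p = 0.0544 to 0.166, range over all alternatives 0.0143 to 0.166).

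CDKN2B, the inhibitor that was high in SCNT4c, was 487, 411 and 541 in SCNT4c-KG and 614, 788 and 1279 in SCNT4c-TDG, against 6291, 5748 and 6458 in SCNT4c. All treated libraries lay below SCNT4c, with log2 fold changes of -3.69 ± 0.41 (adjusted p = 8.98e-06) and -2.85 ± 0.41 (adjusted p = 0.000103). On the deposited scale, all but 1 of them also lay below the fibroblast values of 1110 to 1135. As reads per kilobase of exon at equal depth, CDKN2B was 4.47 ± 0.0755 in PFF, 2.78 ± 0.508 in SCNT4c-KG and 6.63 ± 2.56 in SCNT4c-TDG. Its order in SCNT4c-TDG against PFF therefore depends on the scaling. CDKN2C was listed at 0 in all 3 SCNT4c-KG libraries and at 61.5, 69.9 and 23.2 in SCNT4c (adjusted p = 0.00595). Against a floor of 3 reads per library, it was at least 11.9-fold lower. With TDG it was 3.34, 4.6 and 33.7, with 1 library inside the SCNT4c range and no call (adjusted p = 0.209). CDKN1B and CDKN3 had no call in either comparison.

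**Figure D3:**
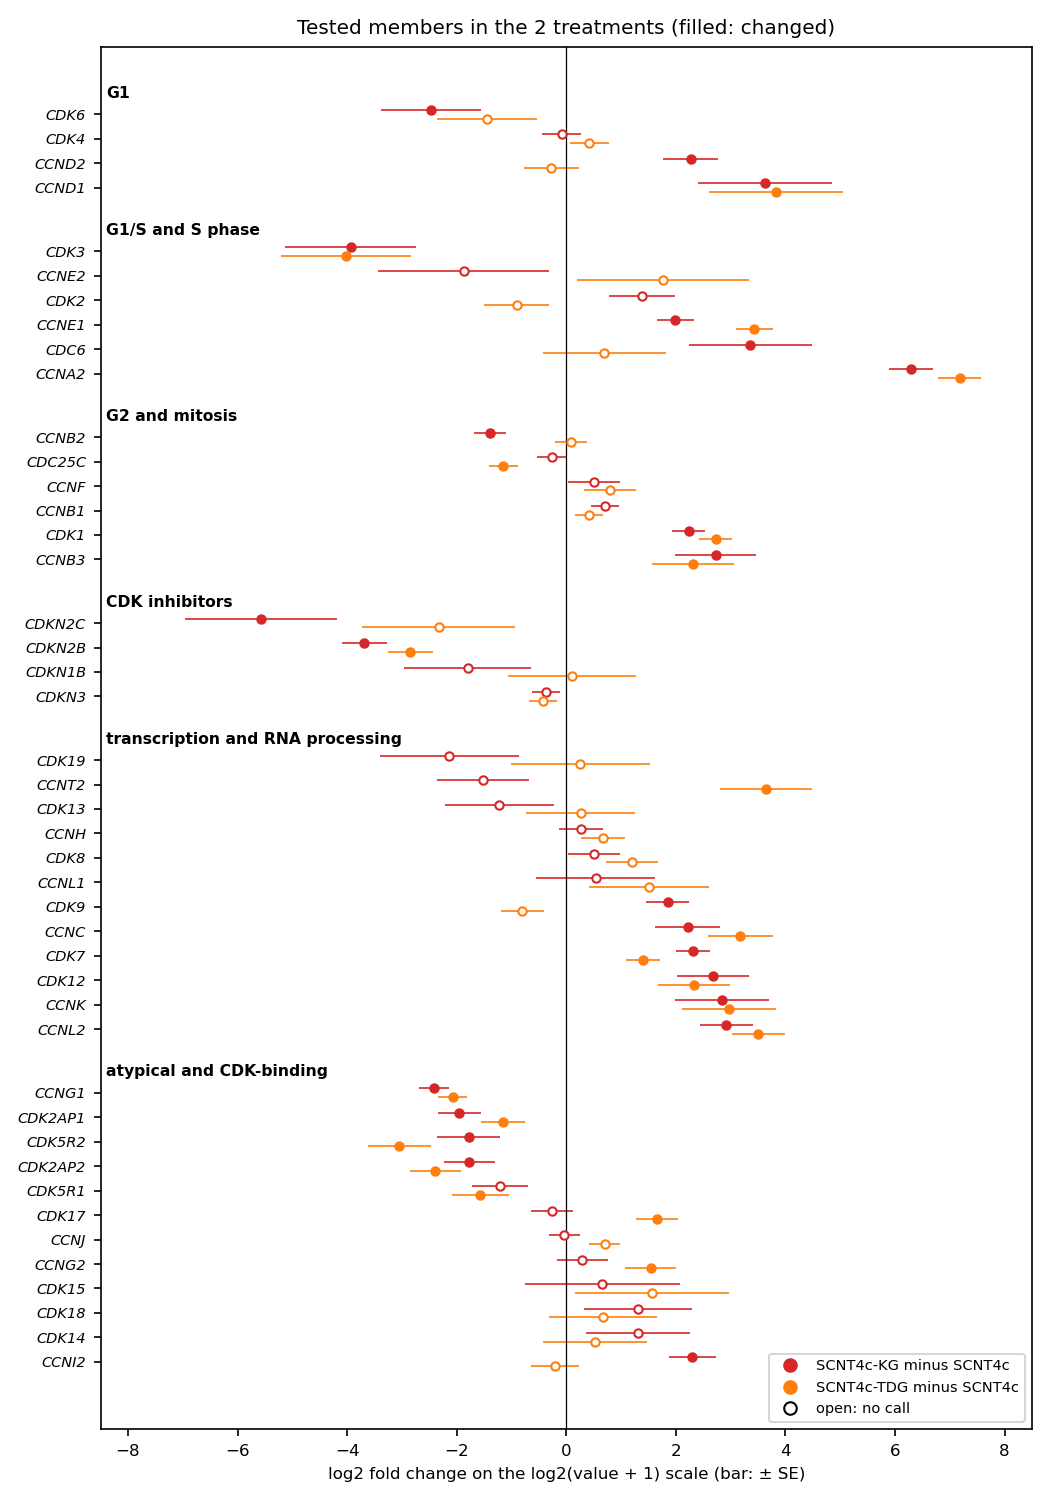
Log2 fold change against SCNT4c of the 44 tested members, grouped by role, in SCNT4c-KG (red) and SCNT4c-TDG (orange). Points are fitted differences on the log2(value + 1) scale with their SE, filled where the member was called changed. CCNA2 lies farthest to the right in both (6.29 and 7.18), and CDKN2B and CCNG1 lie to the left of 0 in both.

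In the transcription group, 6 of 12 tested members were higher and none lower in each comparison, where 17.6% and 15.7% of all features were higher and 19.6% and 17.6% lower. CDK7 was 1794, 2449 and 3588 in SCNT4c, 11593, 12315 and 13571 in SCNT4c-KG and 5307, 8827 and 6247 in SCNT4c-TDG, with no overlap with SCNT4c (2.31 ± 0.31, adjusted p = 5.34e-05, and 1.41 ± 0.31, adjusted p = 0.00293). CCNC, the cyclin of the Mediator kinases, rose from 44.8 ± 8.66 to 215 ± 57.1 and 438 ± 175 (adjusted p = 0.00897 and 0.000848). CCNL2 rose from 40.3 ± 19.7 to 288 ± 63.8 and 433 ± 96.7 (adjusted p = 0.000318 and 7.51e-05). By their own entries, CDK12 and its cyclin CCNK, a pair that keeps long genes transcribed, rose from 12.2 ± 6.1 and 5.44 ± 3.61 to 78.1 ± 11.3 and 41.4 ± 8.68 in SCNT4c-KG, and to 60.9 ± 1.36 and 44.5 ± 4.48 in SCNT4c-TDG. Assembled transcripts at these loci, which also hold 1 other gene each, had more reads than the entries and could not be assigned. At the CDK12 locus they were 181 ± 42.6 in SCNT4c, 182 ± 61.6 in SCNT4c-KG and 83.2 ± 9.58 in SCNT4c-TDG, and at the CCNK locus the 3 libraries were 272, 185 and 208 in SCNT4c, 335, 419 and 301 in SCNT4c-KG and 406, 312 and 253 in SCNT4c-TDG, so that the size of both rises rests on the own entries. CCNK lost its call in both comparisons without SCNT4c library c (adjusted p = 0.06 and 0.0549, ranges over all alternatives 0.00238 to 0.06 and 0.000911 to 0.0563), and with TDG also without SCNT4c-TDG library 2 (adjusted p = 0.0563). CDK12 lost its TDG call without SCNT4c library b (adjusted p = 0.0536, range 0.000282 to 0.0536). The elongation kinase CDK9 and its cyclin CCNT2 parted. CDK9 was higher with KDM4A and GSK126, 3595, 3258 and 1622 against 1268, 490.2 and 650.1 (log2 fold change 1.85 ± 0.39, adjusted p = 0.00195), and CCNT2 with TDG, 144, 143 and 81.9 against 7.89, 8.74 and 9.13 (log2 fold change 3.65 ± 0.84, adjusted p = 0.00393).

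Among the atypical and CDK-binding members, CCNG1, a cyclin induced by p53, was 11219, 15717 and 19886 in SCNT4c, 2615, 2520.3 and 3498 in SCNT4c-KG and 3813, 3489 and 3553 in SCNT4c-TDG. Every treated library was below every SCNT4c library (-2.42 ± 0.27, adjusted p = 7.92e-06, and -2.07 ± 0.27, adjusted p = 3.78e-05). CDK2AP2 fell to 8591, 6423 and 4756 and 4518, 4332 and 3692, again with no overlap with SCNT4c (adjusted p = 0.00832 and 0.00122). CDK2AP1 and CDK5R2 fell in both comparisons too. Of these, the TDG call of CDK2AP1 (log2 fold change -1.15 ± 0.40, adjusted p = 0.0368) was lost with edgeR (adjusted p = 0.115) and DESeq2 (adjusted p = 0.0814) and without any 1 of the 6 libraries (adjusted p = 0.0707 to 0.118, range over all alternatives 0.000708 to 0.118), and the other call of CDK5R2 (log2 fold change -1.78 ± 0.57, adjusted p = 0.0241) without SCNT4c library a or b or SCNT4c-KG library 2 or 3 (adjusted p = 0.0555 to 0.0717, range 0.000682 to 0.0717). CCNI2 was higher with KDM4A and GSK126, at 1081, 1161 and 841 against 339, 165 and 156 (log2 fold change 2.30 ± 0.43, adjusted p = 0.000832). CDK17 was higher with TDG, at 3399, 3307 and 3355 against 781, 1327 and 1181 (log2 fold change 1.65 ± 0.39, adjusted p = 0.00422). Weaker TDG calls were those of CCNG2 (log2 fold change 1.54 ± 0.46, adjusted p = 0.0183), lost without SCNT4c library b or SCNT4c-TDG library 2 (adjusted p = 0.0876 and 0.0961, range 0.000523 to 0.0961), and of CDK5R1 (log2 fold change -1.57 ± 0.52, adjusted p = 0.029), lost with edgeR (adjusted p = 0.0852) and without SCNT4c library a or b or SCNT4c-TDG library 1 or 2 (adjusted p = 0.068 to 0.1, range 0.00153 to 0.1).

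Marker sums also moved with these groups. The 12 fibroblast markers summed to 4243 to 5457 in SCNT4c, 2637 to 3865 in SCNT4c-KG, 1785 to 2339 in SCNT4c-TDG and 2155 to 2438 in SCNT8c, below SCNT4c without overlap in each, with COL5A1 and PDGFRA at 0 in all 4 groups. The 14 listed oocyte and early embryo markers in the table summed to 176080 to 239610 in SCNT4c, 112400 to 189720 in SCNT4c-KG, 58273 to 62560 in SCNT4c-TDG and 52933 to 148970 in SCNT8c. The 9 cumulus markers in the table summed to 109 to 243 in SCNT4c, 276 to 489 in SCNT4c-KG, 76.7 to 132 in SCNT4c-TDG and 65.7 to 209 in SCNT8c, with AMH, FOXL2 and PTX3 at 0 in all 4 groups. The part of any of these lists in the results was not tested.

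Set directly against each other, the treatments differed in 8 of 44 tested members, 4 higher and 4 lower with TDG, or 18.2% against 16.2% of all features (7.07% higher and 9.13% lower). This even split of higher and lower calls became 69.2% higher (9 higher and 4 lower) with equal totals and 63.6% higher (7 higher and 4 lower) with DESeq2. CCNT2 differed most, 144, 143 and 81.9 in SCNT4c-TDG against 3.27, 1.27 and 2.85 in SCNT4c-KG (log2 fold change 5.17 ± 0.84, adjusted p = 0.000933). CCNE1 (log2 fold change 1.44 ± 0.33, adjusted p = 0.00851), CCNB2 (log2 fold change 1.49 ± 0.29, adjusted p = 0.00304) and CDK17 (log2 fold change 1.91 ± 0.39, adjusted p = 0.00363) were also higher with TDG, each with no overlap between the groups. CDK9 was 523, 438 and 332 in SCNT4c-TDG against 3595, 3258 and 1622 in SCNT4c-KG (log2 fold change -2.65 ± 0.39, adjusted p = 0.000453), so that the kinase and its cyclin CCNT2 differed in opposite directions. CCND2 (log2 fold change -2.54 ± 0.51, adjusted p = 0.00335) and CCNI2 (log2 fold change -2.51 ± 0.43, adjusted p = 0.00135) were lower with TDG. CDK2 was lower as well (log2 fold change -2.29 ± 0.60, adjusted p = 0.0164), but not without SCNT4c-KG library 3 or SCNT4c-TDG library 1, 2 or 3 (adjusted p = 0.0523 to 0.0606, range over all alternatives 0.00052 to 0.0606). CCNA2 and CDK1 were higher in every SCNT4c-TDG than in every SCNT4c-KG library, but without a call (0.89 ± 0.40, adjusted p = 0.141, and 0.49 ± 0.30, adjusted p = 0.29).

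The last comparison followed untreated cloned embryos from 4 to 8 cells, and few members moved. Of 44 tested, 4 were higher and none lower in SCNT8c, 9.09% against 5.79% of all features (2.62% higher and 3.16% lower). With limma, 12 members had an unadjusted p under 0.05, and the share of all features under it was not counted. EdgeR called 4 and DESeq2 6 members, where 4.45% and 14.4% of all features were called. CCND2 was 4901, 5895 and 2100.4 in SCNT8c against 1272, 451 and 852 in SCNT4c (log2 fold change 2.32 ± 0.51, adjusted p = 0.0251). CDK1 was 11094, 12078 and 5228 against 3202, 3404 and 3481 (log2 fold change 1.40 ± 0.30, adjusted p = 0.0245), CDK7 9288, 8503 and 5196 against 1794, 2449 and 3588 (log2 fold change 1.57 ± 0.31, adjusted p = 0.0205), and CCNC 232, 449.7 and 74.0 against 39.4, 40.2 and 54.8 (log2 fold change 2.14 ± 0.59, adjusted p = 0.0475). The CCNC call was also lost in limma fits of its sum with the transcript assembled at its locus (adjusted p = 0.0518) and with a pseudocount of 0.1 (adjusted p = 0.0551). In all 4, SCNT8c library 3 was nearest to SCNT4c. Leaving it out raised the number of changed members to 12 (7 higher and 5 lower), while the share of all features called rose to 32.3%. Only 1 member was called by limma without SCNT4c library a or c, where 0.929% and 1.23% of all features were called. None was called without SCNT4c library b or without SCNT8c library 1 or 2, where the share of all features was 0.164%, 0.216% and 0.269%. CCNA2, at 36.4, 15.8 and 30.6 in SCNT8c, overlapped SCNT4c (-0.05 ± 0.40, adjusted p = 0.949). CCNE1 (-0.57 ± 0.33, adjusted p = 0.271) and CDKN2B (-0.41 ± 0.41, adjusted p = 0.533) had no call either. CDKN2B was 3802, 2673 and 9874 in SCNT8c, a spread wider than in any other group. CCNB2 lay lower in every SCNT8c than in every SCNT4c library, at 1508, 1978 and 1925, with no call (-0.90 ± 0.29, adjusted p = 0.0718).

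Levels of different genes were compared as recovered reads per kilobase of exon, scaled to the same depth in each library (RPKM). CCNB1 ranked 1st of 63 in both treated groups and 2nd in SCNT4c behind CDK2AP2 (734 ± 553), whose lead rested on SCNT4c library a and was within the spread. CCNB1 was at 568 ± 143 in SCNT4c, 851 ± 85.1 in SCNT4c-KG and 897 ± 52.6 in SCNT4c-TDG. On the deposited values, the order of the 2 treated groups was the reverse (33382 ± 1626 in SCNT4c-KG and 27389 ± 1683 in SCNT4c-TDG). CCNA2 ranked 26th in SCNT4c, 9th in SCNT4c-KG and 4th in SCNT4c-TDG, at 0.953 ± 0.284, 71.5 ± 16.5 and 168 ± 12.9. The next B-type cyclin, CCNB2, was at 90.7 ± 7.83 in SCNT4c, well under CCNB1. In PFF the order was led by CCNG1 (303 ± 19.9), with CDK4 2nd (112 ± 5.16), and CCNB1 stood 13th (12.9 ± 1.66). CDK1 stood at 24.3 ± 0.693 in SCNT4c and 196 ± 31.2 in SCNT4c-TDG, from 13th to 3rd. CDK7 and CDK2AP2 were the other members among the first 5 in both treated groups.

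Genes that act on cyclins and CDKs were counted from lists chosen by function, with earlier results of these data known, and each count stands against 17.6% higher and 19.6% lower over all features with KDM4A and GSK126, and 15.7% and 17.6% with TDG. Of 9 tested genes that phosphorylate or bind CDKs, 4 were higher and 1 lower with KDM4A and GSK126, and 5 higher and 1 lower with TDG. CKS2, a small subunit that docks CDK1 to its substrates, ranged from 468 to 584 in SCNT4c, from 99600 to 129500 in SCNT4c-KG and from 84970 to 95800 in SCNT4c-TDG (log2 fold changes 7.78, adjusted p = 1.01e-10, and 7.43, adjusted p = 2.45e-10). WEE2, the oocyte kinase that restrains CDK1, fell from 62390 to 106100 in SCNT4c to between 14450 and 21260 in SCNT4c-KG and between 11160 and 12420 in SCNT4c-TDG (log2 fold changes -2.16, adjusted p = 0.00194, and -2.80, adjusted p = 0.000295). WEE1, of the same list, had no call with KDM4A and GSK126 (-0.32, adjusted p = 0.627) and was higher with TDG (1.95, adjusted p = 0.00676). Among 14 tested genes of the anaphase-promoting complex, 5 were higher and 4 lower with KDM4A and GSK126, and 3 higher and 1 lower with TDG. CDC26, a subunit of that complex, ranged from 2142 to 2577 in SCNT4c, from 66240 to 143300 in SCNT4c-KG and from 102800 to 177500 in SCNT4c-TDG (log2 fold changes 5.45, adjusted p = 1.43e-07, and 5.87, adjusted p = 1.91e-07). Of 6 tested SCF and cyclin turnover genes, 3 and 4 were higher and none lower. Of 10 mitotic kinase and checkpoint genes, 3 were higher and 3 lower with KDM4A and GSK126, and 4 higher and none lower with TDG. Of 10 RB and E2F genes, 3 were higher and 3 lower, and 3 higher and 2 lower. Medians over these lists were 1.49 and 1.90, 0.65 and 0.40, 1.02 and 1.42, -0.05 and 0.37, and 0.15 and 0.74 log2 units in this order, each with KDM4A and GSK126 first, against -0.30 and -0.26 over all features. Between SCNT4c and PFF, where 39.7% of all features were higher and 38.5% lower, the same lists had 2 higher and 5 lower of 9, 4 and 8 of 14, 0 and 4 of 6, 6 and 1 of 10, and 3 and 3 of 9 genes. Their medians were -2.24, -1.42, -1.77, 1.98 and -0.75, against 0.07 over all features. In SCNT8c, where 2.62% of all features were higher and 3.16% lower, the lists held 1 lower, 2 higher, none, 1 lower and none.

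Several well-known members were low or scattered. CCND3, the remaining D-type cyclin, was 15.9, 3.82 and 16.7 in PFF and at 0 in SCNT4c, SCNT8c and SCNT4c-KG by its own entry. Transcripts assembled at its locus, which 2 other genes share, summed to 162, 118 and 136 in PFF and 114, 158 and 110.4 in SCNT4c. CDC20, which activates the anaphase-promoting complex, was 32.7, 30.5 and 15.7 in SCNT4c-KG, 14.2, 6.12 and 4.15 in SCNT4c and 1.67, 3.84 and 5.36 in SCNT4c-TDG, and its mean over the embryos missed the minimum for a test. CCNE2 scattered from 0 to 83.4 among the embryo libraries and had no call by limma. Its SCNT4c-TDG libraries (17.6, 32.2 and 83.4) all lay above its SCNT4c-KG libraries (6.53, 2.54 and 0), with an adjusted p of 0.128 that was 0.025 in a limma fit of these 2 groups alone (range over all alternatives 0.025 to 0.329). Assembled transcripts at the CCNE2 locus, which 3 other genes share, were at 252 ± 55.7 and 138 ± 35.7 in these groups. CCNA1, the germ cell cyclin A, was under 10 in every library but 1 of SCNT4c-TDG (53.5). CDC45, a part of the replicative helicase, and CCNT1, a cyclin of CDK9, did not pass 24.5 in any library by their own entries. Both loci hold other genes and assembled transcripts whose reads could not be assigned. Those at the CCNT1 locus summed to 20179, 14270 and 15088 in SCNT4c, 4428, 3534 and 3740.5 in SCNT4c-KG, 1708, 2591 and 3192 in SCNT4c-TDG and 25.7, 36.9 and 31.0 in PFF. Those at the CDC45 locus summed to 134, 278 and 165 in SCNT4c-KG and 3.94, 9.61 and 22.4 in SCNT4c. CCNH and CDK8 were tested and well above the minimum, but had no call among the embryos by limma, with CDK8 at 199.9, 189 and 200.5 in SCNT4c-TDG against 52.1, 136 and 85.5 in SCNT4c (log2 fold change 1.20 ± 0.47, adjusted p = 0.0626). These groups did not overlap, and 6 of 16 alternatives called CDK8 higher, DESeq2 among them (adjusted p = 0.0141, range over all alternatives 0.0141 to 0.21).

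A low value of a gene's own entry did not always mean a low signal at its locus. 10 of the 63 members stayed under 10 in every library, and all 10 have a transcript assembled without a gene name at the same locus, against 33 of the other 53. The share over all known genes was not counted. Such a transcript need not hold reads, since that of CDKN2D was at 0 in all 15 libraries and that of CDK5RAP1 did not pass 13.1. CDK5RAP2, CDKN2D, CCNY, CCNO and CDK5 were at 0 in all 15 libraries. Also, 36 of the 63 share their locus in the table with other genes, and the strand setting of the counting is not given in the sources used here. Assembled reads were therefore added only to genes alone at their locus, and even there they need not come from that gene. CDC25B, a phosphatase that activates CDK1, is alone at its locus. Its own entry never passed 5.96, but the assembled transcript at its locus was 1141, 1654 and 1711 in SCNT4c, 320.2, 114 and 172 in SCNT4c-KG, 9.2, 42.2 and 22.2 in SCNT4c-TDG, 445, 293 and 2338 in SCNT8c and 19.5, 24.2 and 22.6 in PFF. The sum of both was lower with KDM4A and GSK126 (log2 fold change -2.99 ± 0.70, adjusted p = 0.00372) and lower still with TDG (-6.08 ± 0.70, adjusted p = 1.32e-05). TDG also differed from KDM4A with GSK126 (-3.08 ± 0.70, adjusted p = 0.00703), and none of these groups overlapped.

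**Figure D4:**
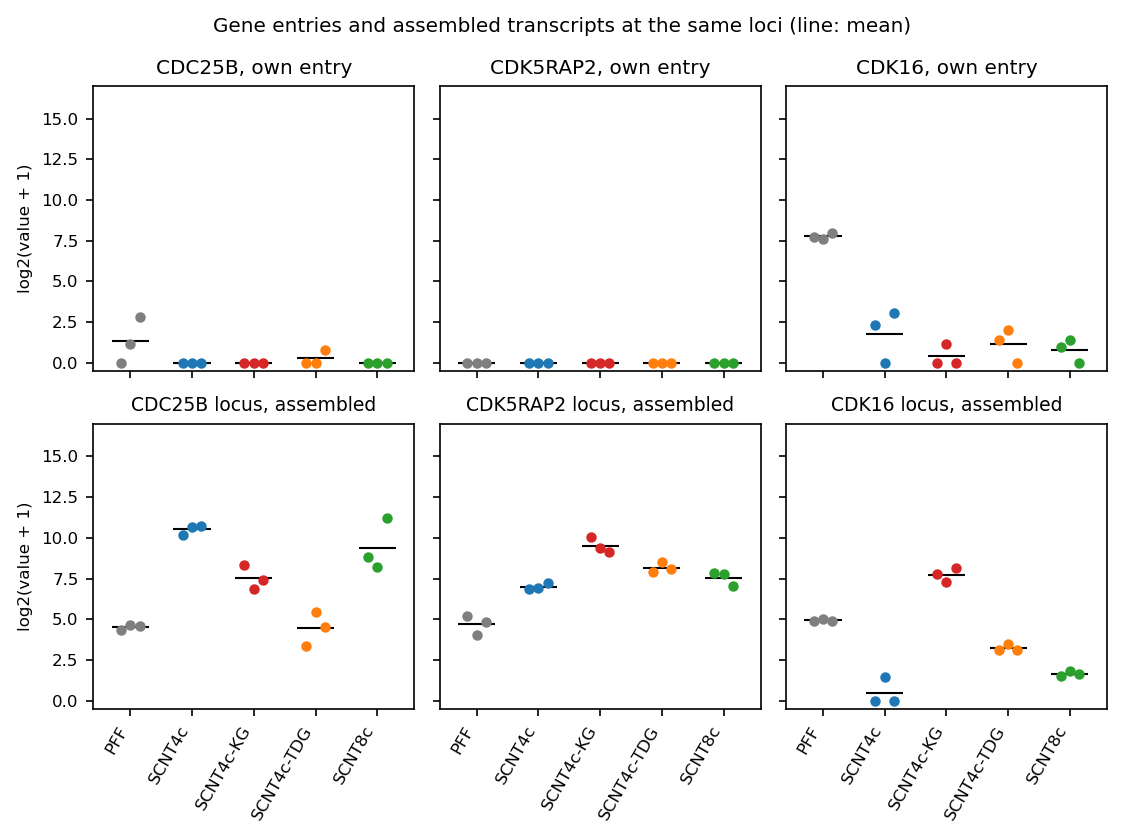
Own entries (upper panels) and assembled transcripts at the same loci (lower panels) of CDC25B, CDK5RAP2 and CDK16, on a log2(value + 1) axis for each of the 15 libraries, with the black line at the mean of each group. The entry of CDC25B is near 0 throughout, while its locus reads between 1141 and 1711 in SCNT4c and between 9.20 and 42.2 in SCNT4c-TDG.

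CDK5RAP2, a centrosome protein, was at 0 by its own entry, and the assembled transcript at its locus was 114, 121 and 148 in SCNT4c, 1039, 656 and 567 in SCNT4c-KG and 233, 369.7 and 271 in SCNT4c-TDG. The sum was higher with either treatment (2.51 ± 0.40, adjusted p = 0.000202, and 1.17 ± 0.40, adjusted p = 0.0331). CDK16 was 215, 195 and 248 in PFF and never passed 7.47 in an embryo by its own entry. The assembled transcript at its locus was 217, 156 and 279 in SCNT4c-KG, against 0, 1.75 and 0 in SCNT4c and 7.53, 9.97 and 7.65 in SCNT4c-TDG. The sum was higher with KDM4A and GSK126 (5.45 ± 0.79). It passed the minimum mean through SCNT4c-KG alone, so no p-value is given. These 3 loci were picked out after their values were seen.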

How the data were processed

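RNA-seq libraries were made from SMARTer-amplified RNA of 3 samples in each of 5 groups. Per the sources, the authors used CASAVA 1.8.2, Trimmomatic 0.39, STAR 2.5.3a on Sscrofa11.1, StringTie 2.1.2 and HTSeq. The deposited values (signal) are HTSeq read counts per gene divided by 1 factor per library. All 100% of values in every library were whole multiples of 1 read (tolerance 0.05 reads), so read counts were recovered. Of 43535 entries, 241 repeats were removed. Recovered depth was 12354649 to 22868038 reads per library, and intervals from reads cover counting error only.

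Members and lists were chosen with earlier results of these data known. Core members, and the largest rises and falls among changed members, were named, and other members were added by role. Values were tested as log2(value + 1) with limma 3.58.1 (R 4.3.3, trended variance) for features with a mean of at least 10, using Benjamini-Hochberg adjustment over all features tested. The 12 embryo libraries shared 1 fit, and SCNT4c against PFF used 6 libraries. Alternatives were other pseudocounts, filters and scalings, edgeR 4.0.16 and DESeq2 1.42.0 on recovered reads, sums with assembled transcripts, fits of 2 groups and leaving out each library. The labels number the SCNT4c libraries in conflicting ways, so these libraries carry the letters a to c. The descriptions of the SCNT4c-KG samples resemble names of untreated columns, so their columns were matched by title. The strand setting and sequencing batches are not given in the sources used here, so treatment and any batch cannot be told apart. Exact permutation of 3 against 3 libraries cannot give a p below 0.1, so no such test was used. Embryos developed in vivo were not analysed here. The promoter sequences of some members are not reported here.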

Additional observations from a re-analysis of the deposited data

How the results depend on the processing

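No member changed direction while called. Of the changed members, 17 of 23 with KDM4A and GSK126, 12 of 21 with TDG, 7 of 8 between the treatments, 31 of 35 between SCNT4c and PFF and 0 of 4 between SCNT8c and SCNT4c were called in every alternative that tested them. For SCNT8c against SCNT4c, the count of 4 became 0 in a limma fit of these 2 groups alone, with 12 members at an unadjusted p under 0.05 in the fit of all embryos, 4 called by edgeR and 6 by DESeq2. The share of all features called was 5.79% in the main fit, 0.0% in the fit of the 2 groups, 4.45% with edgeR and 14.4% with DESeq2. Leaving out single libraries gave 0 to 12 for SCNT8c, 19 to 21 with KDM4A and GSK126, 16 to 19 with TDG, 7 to 8 between the treatments and 34 to 37 against PFF. The share of all features called in the same fits was 0.164% to 32.3%, 28.9% to 33.1%, 23.7% to 27.7%, 9.45% to 13.3% and 73.6% to 79.5%, in this order. Between the treatments, 8 became 13 with equal totals and 14 in a fit of the 2 groups alone. It was also 14 with a replicate block in that fit. The share of all features called was 16.2% in the main fit, 16.3% with equal totals, 27.5% in the fit of the 2 groups and 26.5% with the block. The replicate numbers share no stated source, and same-numbered libraries deviated together with correlations of -0.001, -0.002 and 0.025, so they were not treated as pairs. Other scalings moved the median of all features: from 0.066 to 0.859 (equal totals), 0.962 (edgeR) and 1.006 (DESeq2) against PFF, from -0.307 to 0.023 (quantile) and 0.066 (DESeq2) for SCNT8c, from -0.022 to 0.335 (equal totals) between the treatments, from -0.261 to 0.017 (equal totals) with TDG and from -0.304 to -0.088 (DESeq2) with KDM4A and GSK126. With assembled transcripts added, 36.4% of the calls between the treatments were higher with TDG. The cause of these differences was not tested. Depth limits the low members most, since 1 read is worth between 0.765 and 1.63 in these values.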
